A study of Mus musculus with 46 samples.

Results

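The genes described here are 10 genes of the endoplasmic reticulum (ER) folding machinery and the unfolded protein response: Hspa5, Hsp90b1, Calr, Pdia4, Pdia6, Hyou1, Sdf2l1, Dnajb9, Herpud1 and Xbp1. They were taken by symbol from a list that was chosen with earlier results of these data known. All 10 were found among the 9857 symbols that the tables of both treatments share. Ribosome footprints and poly(A) RNA came from EPP2 cells, a mouse pancreatic cancer line used here as 1 single-cell-derived clone with Cas9 under a doxycycline-inducible promoter. The groups were control with DMSO, control with torin 1, Ctu1 iKO with DMSO and Ctu1 iKO with torin 1. Ctu1 iKO cells carried guide RNAs against Ctu1, an enzyme that thiolates the wobble uridine of certain tRNAs, and received 300 ng/ml doxycycline for 4 days. Torin 1, an inhibitor of the mTOR kinase, was given at 300 nM for 2 h and DMSO was its solvent. Controls either did not receive doxycycline or carried guides aimed at non-coding DNA. The sources used here do not say which of these each library was. Where a control did not receive doxycycline, loss of Ctu1 cannot be told apart from doxycycline and the induction of Cas9. Footprints were compared over 6, 6, 5 and 6 libraries of these groups in the order given, and transcripts over replicates 1 to 3 of each group. The methods text names fewer biologically independent replicates than there are libraries, whereas legends for the footprints count the experiments of a group as independent. The legend for transcripts gives 2 independent experiments, fewer than the replicates used here. Where libraries were not from separate cultures, the p-values measure only the spread between them.

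Secreted and membrane proteins fold in the ER with the help of chaperones such as BiP, the product of Hspa5, and of enzymes that form disulfide bonds. When unfolded proteins accumulate, the sensors ATF6, IRE1 and PERK raise the capacity of the ER and slow protein synthesis. ATF6 and the transcription factor XBP1, whose mRNA is spliced by IRE1, induce chaperone genes, while PERK phosphorylates eIF2-alpha and thereby favours translation of Atf4. ATF4 is also induced by other kinases that sense amino acid shortage, viral RNA or heme deficiency, a common pathway called the integrated stress response. Cells that secrete much, such as those of the exocrine pancreas, depend on this response.

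The depth was 4602092 to 52907878 counts in the footprint libraries and 129881946 to 293648854 in the RNA-seq libraries of replicates 1 to 3. All RNA-seq counts were even, so that these totals may count each fragment more than once. Each library was placed between the groups over all genes, on an axis of torin 1 and an axis of genotype. None of the 12 RNA-seq libraries of replicates 1 to 3 lay nearer to a group it was not labelled as, but 6 of the 23 RNA-seq libraries in all did, and these were all numbered 4 or later. Of the 23 footprint libraries, none lay on the other side of the cutoff of 0.5 for torin 1 and 2 did for genotype. These were replicates 1 and 3 of the libraries labelled Ctu1 iKO with torin 1, at 0.342 and 0.467 on the axis of genotype. The other 4 of that group lay at 0.6 to 0.808, Ctu1 iKO with DMSO at 0.506 to 0.682 and all control libraries at -0.0499 to 0.273. Both libraries thus lay between the genotypes. They are called below the libraries against their genotype label, which means only that they fell under 0.5. They were kept, and results that rest on them are also given without both. Footprint replicate 1 of Ctu1 iKO with torin 1 was the shallowest library and stood apart from its group. Ctu1 was listed with DMSO only, at 2.57 ± 0.708 normalised footprint CPM in control (SD, n = 6) and 1.76 ± 0.407 in Ctu1 iKO (n = 5), a log2 difference of -0.54 that did not pass the test (adjusted p = 0.353). Its transcripts were at 4.53 ± 0.099 and 4.60 ± 0.317 normalised CPM (n = 3 each). Neither value measures whether the reading frame was disrupted. Of the marker lists, 5 of 12 epithelial genes were listed (Krt8, Krt18, Krt19, Epcam and Sox9, but not Cdh1), as were 9 of 10 fibroblast and mesenchymal genes, 0 of 11 acinar genes and 1 of 9 immune and endothelial genes. The summed transcript level of the 8 mesenchymal markers listed under both treatments was 2860 to 2960 normalised CPM in control with DMSO. It was 3600 to 3870 in control with torin 1, 3560 to 3740 in Ctu1 iKO with DMSO and 5640 to 6060 in Ctu1 iKO with torin 1. In the same order, their summed footprints were at 4320 to 5880, 3530 to 4390, 4280 to 6280 and 2560 to 4790. Over the control libraries the mean transcript count was 517000 for Vim and 2190 for Pdgfra, so that Vim weighs heavily in these sums. In that order of groups, the 4 epithelial markers listed under both treatments summed to 286 to 307, 380 to 437, 319 to 398 and 550 to 619 in transcripts. In footprints they summed to 331 to 403, 308 to 410, 365 to 501 and 395 to 499. With torin 1 in Ctu1 iKO, Vim changed by log2 0.75 in transcripts and -0.93 in footprints (edgeR, adjusted p = 0.00758 and 9.03e-05), while 2 of the 8 markers had higher footprints. In transcripts of Ctu1 iKO with DMSO, 2 of 9 mesenchymal markers passed the test as higher and 0 as lower, where 3.32% of all genes were higher. These were Acta2 (log2 2.21, adjusted p = 0.0165) and Dcn (log2 1.36, adjusted p = 0.0199). The part of either list in the results was not tested. In such bulk samples, fewer cells of a type and less RNA per cell cannot be told apart.

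Normalised CPM are a gene's counts relative to its library's total (CPM) after scaling by TMM, a factor that aligns the bulk of the genes between libraries. Per kilobase of coding sequence, Hspa5 had the highest footprint level of the 10 genes in control with DMSO, at 646 ± 38.1 normalised CPM per kilobase (SD, n = 6). Hsp90b1, the ER member of the HSP90 family, followed at 452 ± 69.6, and the calcium-binding lectin chaperone Calr at 316 ± 35.2. The disulfide isomerases Pdia6 and Pdia4 were at 170 ± 14.1 and 62.1 ± 4.56, with Hyou1, a nucleotide exchange factor for BiP, between them at 123 ± 15.9. Xbp1 was at 42.3 ± 9.37 and Herpud1, which helps to remove misfolded proteins from the ER, at 36.2 ± 6.88. Sdf2l1, a small partner of BiP, was at 17.0 ± 1.92, and Dnajb9, a J-protein that acts on BiP and on IRE1, was lowest at 5.77 ± 1.36. Neighbours in this order did not overlap over the 6 libraries except for Hsp90b1 with Calr, Pdia6 with Hyou1 (148.4 to 189 and 101.8 to 148.5), and Xbp1 with Herpud1. Together the 10 genes took 0.338% ± 0.0308 of all footprints in control with DMSO (SD, n = 6), 0.371% ± 0.0511 with torin 1, 0.297% ± 0.0561 in Ctu1 iKO with DMSO (n = 5) and 0.327% ± 0.103 in Ctu1 iKO with torin 1. These shares overlapped between all groups.

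**Figure D1:**
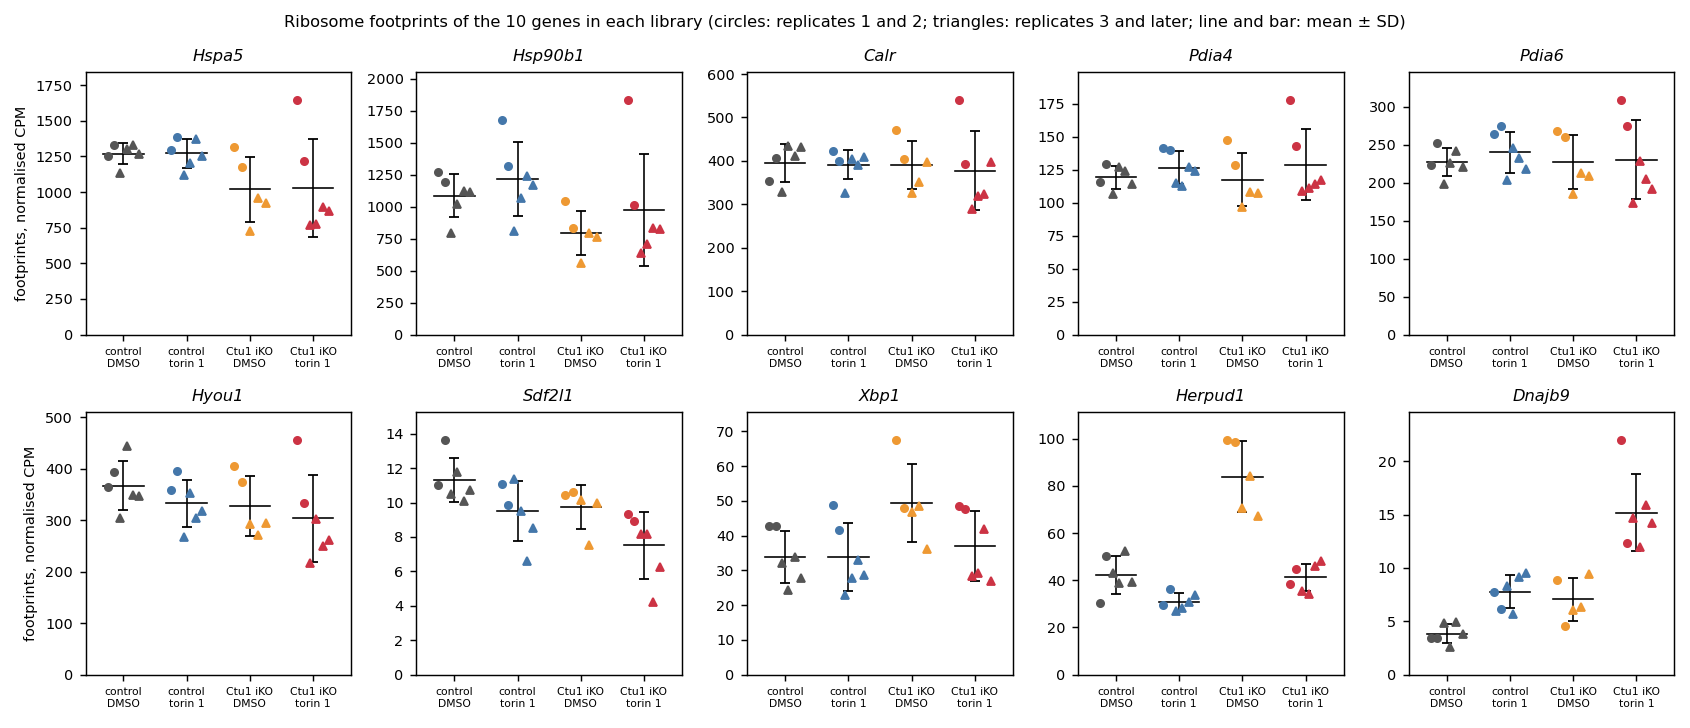
Normalised footprint CPM (y axes, each from 0) of the 10 genes in every footprint library of the 4 groups (x axes). Points are libraries, with circles for replicates 1 and 2 and triangles for later ones, and lines with bars are the mean ± SD. Herpud1 with DMSO lay at 67.2 to 99.5 in Ctu1 iKO, above every control library, and Dnajb9 was highest in Ctu1 iKO with torin 1.

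Herpud1 footprints were 1.98-fold higher in Ctu1 iKO with DMSO than in control. In the 5 Ctu1 iKO libraries Herpud1 had 99.5, 98.5, 70.5, 84.1 and 67.2 normalised CPM, while the 6 control libraries had a lowest value of 30.4, a median of 41.2 and a highest of 52.2. The groups did not overlap, which held for 4.62% of all genes. The log2 change was 0.99 with a standard error (SE) of 0.15 and an adjusted p of 0.00439 (edgeR quasi-likelihood test, Benjamini-Hochberg over all genes tested). Herpud1 was the only one of the 10 genes called, a gene being called at an adjusted p under 0.05, where 2.66% of all 10397 genes tested were called. Replicates 1 and 2 alone gave a log2 change of 1.30 and later replicates alone 0.77 (adjusted p = 0.0288). The fit of replicates 1 and 2 alone called 0 of 10358 genes here and 0 of 9867 between genotypes under torin 1, so that its p-values say nothing about a single gene and only its log2 changes are given.

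Dnajb9 and Xbp1 had higher means in Ctu1 iKO with DMSO but were not called. Dnajb9 had 8.84, 4.59, 6.07, 6.31 and 9.47 normalised footprint CPM in Ctu1 iKO and 2.58 to 4.96 in control with a median of 3.62, so that 1 Ctu1 iKO library lay within the control range. Its log2 change was 0.87 (SE 0.24, adjusted p = 0.0677), and its adjusted p was 0.0167 in DESeq2. Xbp1 had 67.5, 48.0, 46.8, 48.4 and 36.1 against 24.4 to 42.6 with a median of 33.0, again with 1 library inside the control range, and a log2 change of 0.54 (SE 0.17, adjusted p = 0.116, and 0.0402 in DESeq2). The unspliced and spliced forms of Xbp1 stand on 1 row of the tables, so that these values do not measure splicing.

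Beside Dnajb9, itself a partner of BiP and at 0.87 here, the other 7 genes for folding proteins and their partners were Hspa5, Hsp90b1, Calr, Pdia4, Pdia6, Hyou1 and Sdf2l1. None of the 7 was called in Ctu1 iKO with DMSO, and their log2 changes ran from -0.44 to 0.00 with SEs of 0.11 to 0.15. Calr, Pdia4 and Pdia6 were at -0.01, -0.02 and 0.00. Hspa5 and Hsp90b1 had unadjusted p-values under 0.05 (edgeR, 0.0265 and 0.00957), and their log2 changes were -0.31 (SE 0.13, adjusted p = 0.206) and -0.44 (SE 0.15, adjusted p = 0.128). With DESeq2, Hsp90b1 passed at an adjusted p of 0.0478.

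Levels of these genes also went with the replicate number in Ctu1 iKO, and in control with torin 1. They are not 7 separate observations, since the other 6 correlated with Hspa5 over the libraries at r of 0.757 to 0.885, apart from Sdf2l1 at 0.413. In Ctu1 iKO with DMSO, replicates 1 and 2 lay above all later replicates for each of the 7, where 20.7% of all 9857 genes did so and 19.7% lay below, for example at 128.8 to 147.5 against 96.56 to 108 normalised footprint CPM for Pdia4 and at 373.9 to 404.7 against 270.8 to 293.7 for Hyou1. In Ctu1 iKO with torin 1 this held for all but Calr, where 16.6% of all genes did so. In control with torin 1 it held for Hsp90b1, Pdia4, Pdia6 and Hyou1 (16.6% of all genes). In control with DMSO it held for Hsp90b1 alone of the 7, which is near the share of all genes (16.2%). Hspa5 had 1314 and 1173 normalised footprint CPM in replicates 1 and 2 of Ctu1 iKO with DMSO, close to the 1131 to 1332 of the control libraries, and 726, 956 and 926 in replicates 3 to 5, which lay below all control libraries. The log2 change of Hspa5 was -0.05 in replicates 1 and 2 alone and -0.53 in later replicates alone (adjusted p = 0.0489). With torin 1, Ctu1 iKO had 1645 and 1215 in replicates 1 and 2 and 768, 774, 892 and 867 in replicates 3 to 6, against 1123 to 1384 in control with torin 1, and the log2 change of Hspa5 was 0.08 in replicates 1 and 2 alone and -0.58 in later ones alone (adjusted p = 0.004). Hsp90b1 changed by -0.39 and -0.52 (adjusted p = 0.107) on the log2 scale in the earlier and later replicates with DMSO, and by -0.09 and -0.51 (adjusted p = 0.0528) with torin 1. The labels do not say what set replicates 1 and 2 apart, and the difference between the earlier and later replicates was not tested.

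**Figure D2:**
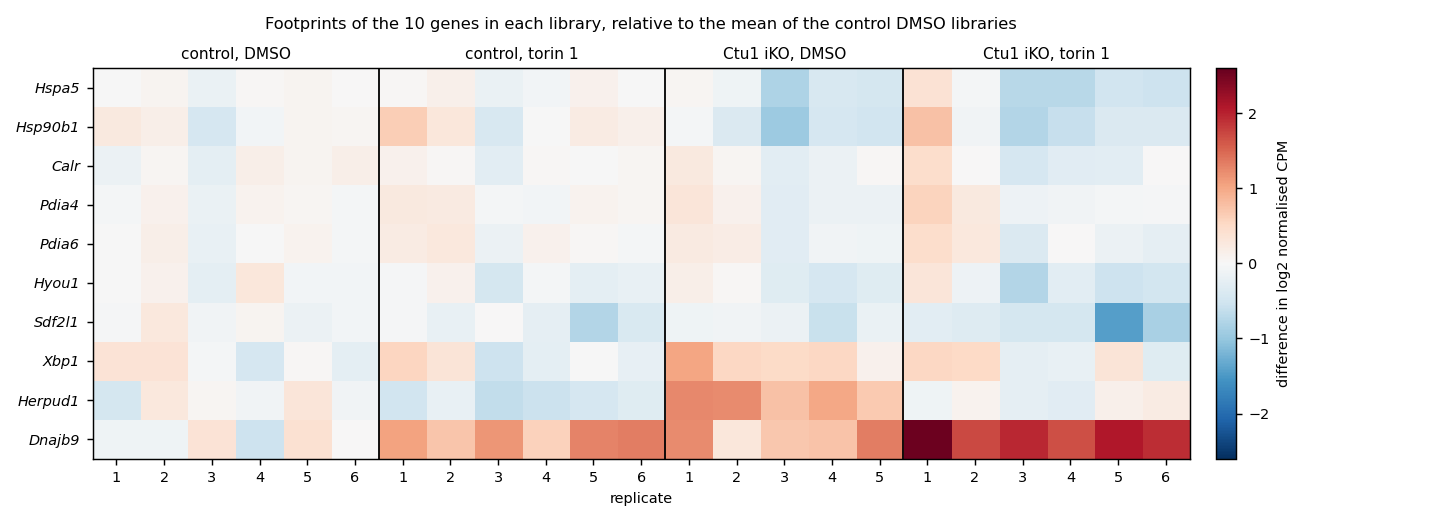
Footprints of the 10 genes (rows) in each of the 23 libraries (columns, by group and replicate number), as the difference in log2 normalised CPM from the mean of the 6 control libraries with DMSO. Dnajb9 reached 2.55 in Ctu1 iKO with torin 1 and Herpud1 1.25 in Ctu1 iKO with DMSO, while Hspa5, Hsp90b1, Pdia4, Hyou1 and Sdf2l1 lay below the control mean in every replicate numbered 3 or later of Ctu1 iKO, and Hsp90b1 with DMSO and Sdf2l1 did so in replicates 1 and 2 too.

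Torin 1 moved Herpud1 and Dnajb9 in opposite directions in control cells within 2 h. Dnajb9 rose 2.02-fold, from 2.58 to 4.96 normalised footprint CPM with DMSO to 5.70 to 9.50 with torin 1 (medians 3.62 and 8.05, n = 6 each). Its groups did not overlap, as for 5.44% of all genes, and the log2 change was 1.01 (SE 0.20, adjusted p = 0.00555). Herpud1 fell by 0.46 on the log2 scale (SE 0.13, adjusted p = 0.0479), from a range of 30.4 to 52.2 with a median of 41.2 to one of 26.8 to 36.4 with a median of 30.2, and the groups overlapped. This call was at the threshold and was lost when any of 10 of the 12 libraries was left out, with adjusted p-values up to 0.111 (it held without control DMSO replicate 1 and without control torin 1 replicate 2) and log2 changes of -0.54 to -0.39. These were 2 of 10 genes called, where 7.24% of 9856 genes were called. Apart from Dnajb9, the 7 other genes for folding proteins and their partners changed by -0.26 to 0.16 on the log2 scale, and Hspa5 had 1269 ± 74.9 and 1271 ± 100 normalised CPM (SD, n = 6 each) with DMSO and with torin 1. Herpud1 changed by -0.29 in replicates 1 and 2 alone and -0.54 in later ones, and Dnajb9 by 1.02 in each.

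In Ctu1 iKO cells torin 1 lowered Herpud1 and raised Dnajb9, the same directions as in control. Its footprints went from 67.2 to 99.5 normalised CPM with DMSO to a range of 34.3 to 48.3 with a median of 41.6, with no overlap, and fell by 1.03 on the log2 scale (SE 0.14, adjusted p = 0.000272). The mean with torin 1, 41.2 ± 5.91 (SD, n = 6), lay beside that of control with DMSO, 42.4 ± 8.07 (n = 6). Dnajb9 rose 2.13-fold, from 4.59 to 9.47 to a range of 12.0 to 22.001 with a median of 14.5, again without overlap (log2 change 1.09, SE 0.23, adjusted p = 0.00831). Of all genes, 8.16% were without overlap here. Herpud1 and Dnajb9 were 2 of 10 genes called, where 8% of 9855 genes were called. Without the pair of footprint libraries against their genotype label both were still called, Herpud1 at -0.96 (adjusted p = 0.00268) and Dnajb9 at 0.94 (adjusted p = 0.0289). Xbp1 changed by -0.43 (SE 0.20, adjusted p = 0.236), from 49.4 ± 11.3 to 37.0 ± 10.1 normalised CPM. Comparisons that share libraries, as the 2 torin 1 comparisons share theirs with those of genotype, are given side by side and were not correlated.

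With torin 1 in both genotypes, Dnajb9 was the gene called between Ctu1 iKO and control. All 6 Ctu1 iKO libraries, at 12.0 to 22.001 normalised footprint CPM, lay above the 5.70 to 9.50 of control, and 4.31% of all genes were without overlap. The log2 change of Dnajb9 was 0.95 (SE 0.19, adjusted p = 0.00934), a 1.93-fold difference. Herpud1 was at 41.2 ± 5.91 and 30.9 ± 3.57 (SD, n = 6 each), a log2 difference of 0.42 (SE 0.13, adjusted p = 0.0787) with overlapping groups. The count of 1 of 10 stands against 4.83% of 9913 genes. Replicate numbers paired the libraries in this comparison, and with the number as a block 3 genes were called, where 14.4% of genes were: Dnajb9, Herpud1 (log2 0.41, adjusted p = 0.0122) and Hsp90b1 (log2 -0.38, adjusted p = 0.0164). Without Ctu1 iKO replicate 1, the library that stood apart, Hspa5 was called as lower (log2 -0.49, adjusted p = 0.0282) and Hsp90b1 changed by -0.60 (adjusted p = 0.0524), against -0.31 and -0.32 with it. Without both libraries against their genotype label, Dnajb9 remained the gene called (log2 0.80, adjusted p = 0.0346), and Hspa5 and Hsp90b1 were at -0.44 (adjusted p = 0.0733) and -0.52 (adjusted p = 0.12).

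The torin 1 effect was not shown to differ between genotypes for any of the 10 genes (edgeR and DESeq2, 0 called each), where 0.639% of 9857 genes were called in edgeR. Herpud1 had the largest difference, -0.57 on the log2 scale (SE 0.19), and was the 1 gene with an unadjusted p under 0.05 (0.00727, adjusted p = 0.46). Dnajb9 differed by 0.08 with an SE of 0.30.

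**Figure D3:**
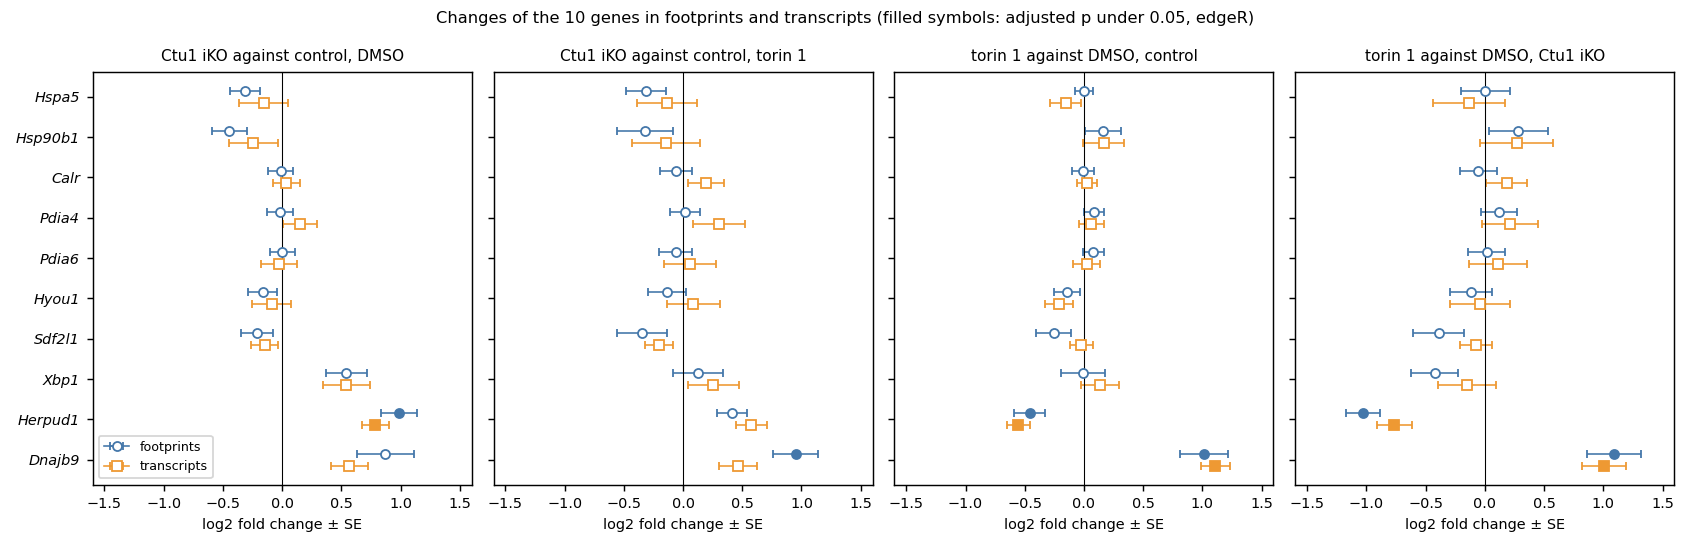
Log2 fold changes (x axes, with SE bars) of the 10 genes (rows) in footprints (blue circles) and transcripts (orange squares), for Ctu1 iKO against control with each treatment and torin 1 against DMSO in each genotype. Filled symbols passed an adjusted p of 0.05, and only Herpud1 and Dnajb9 carry them.

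Herpud1 was also the gene called among the transcripts. In Ctu1 iKO with DMSO, Herpud1 transcripts were at 83.2, 68.1 and 62.1 normalised CPM in replicates 1 to 3 against 41.8, 43.6 and 37.8 in control. The groups did not overlap, which held for 30.9% of all genes at 3 libraries against 3, and the log2 change was 0.79 (SE 0.11, adjusted p = 0.0174), a 1.73-fold rise. The call was lost when any library other than Ctu1 iKO replicate 3 was left out, with adjusted p-values up to 0.0873 and log2 changes of 0.67 to 0.87. Herpud1 was the 1 gene of 10 called, where 5.12% of 10119 genes were called.

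Replicate numbers paired the RNA-seq libraries, and with the number as a block 4 genes were called with DMSO, where 28% of all genes were. Beside Herpud1 these were Xbp1 (log2 0.54, adjusted p = 0.000679, against 0.152 without the block), Dnajb9 (log2 0.56, adjusted p = 0.0127, against 0.0804) and Hsp90b1 (log2 -0.27, adjusted p = 0.0227, against 0.519). Xbp1 transcripts were at 80.6, 74.4 and 50.2 normalised CPM in Ctu1 iKO and at 53.8, 50.9 and 35.8 in control, so that each Ctu1 iKO replicate was above the control of the same number while the groups overlapped. Without the block but also without Ctu1 iKO replicate 3, Xbp1 was called too (log2 0.72, adjusted p = 0.0478). Dnajb9 transcripts were at 5.64, 4.38 and 6.39 against 3.92, 3.47 and 3.68, without overlap.

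With torin 1, Dnajb9 transcripts rose in both genotypes and Herpud1 transcripts fell in both over replicates 1 to 3. With all RNA-seq replicates, which include the 6 libraries against their labels, Herpud1 in control was at 0.0154 on the log2 scale (adjusted p = 0.98) and none of the 10 genes was called in Ctu1 iKO, where Herpud1 was at -0.59 and Dnajb9 at 0.47 (adjusted p = 0.969 each), in a fit that called 0 genes of all tested, while Dnajb9 in control was still called (log2 0.99, adjusted p = 0.00374). In control, Dnajb9 went from 3.92, 3.47 and 3.68 normalised CPM to 8.34, 6.91 and 8.87 (log2 1.11, SE 0.12, adjusted p = 0.0026), and Herpud1 from 41.8, 43.6 and 37.8 to 25.2, 31.0 and 28.7 (log2 -0.55, SE 0.10, adjusted p = 0.0111). Neither pair of groups overlapped, as for 32.4% of all genes, and the Herpud1 call was lost only without control DMSO replicate 2 (adjusted p = 0.0571). They were 2 of 10 called, where 13.1% of 9617 genes were. With the replicate number as a block, 6 of the 10 were called, where 43.7% of all genes were, and the 4 added genes had small changes: Hspa5 by -0.15 (adjusted p = 0.0125), Hsp90b1 by 0.16 (adjusted p = 0.0119), Hyou1 by -0.21 (adjusted p = 0.00204) and Xbp1 by 0.15 (adjusted p = 0.0439) on the log2 scale.

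In Ctu1 iKO cells torin 1 took Dnajb9 transcripts from 5.64, 4.38 and 6.39 to 10.7, 9.20 and 13.1 normalised CPM (log2 1.01, SE 0.19, adjusted p = 0.0208). Herpud1 transcripts went from 83.2, 68.1 and 62.1 to 41.8, 47.9 and 35.7 (log2 -0.77, SE 0.15, adjusted p = 0.0233). Both genes were without overlap, as were 30% of all genes, and 2 of 10 genes were called where 8.25% of 9619 genes were. The Herpud1 call was lost without replicate 1 or 2 of either group and the Dnajb9 call without DMSO replicate 1 or 2 or torin 1 replicate 1, with adjusted p-values up to 0.0843 and 0.0841.

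Between genotypes under torin 1 none of the 10 transcripts was called in edgeR, where 1.31% of 9650 genes were. Herpud1 and Dnajb9 had unadjusted p-values under 0.05, with log2 changes of 0.58 (SE 0.13, adjusted p = 0.0848) and 0.47 (SE 0.16, adjusted p = 0.175), and neither pair of groups overlapped. The groups of Sdf2l1 did not overlap either, with all Ctu1 iKO libraries lower (log2 -0.20, adjusted p = 0.378), and 26% of all genes did not overlap. DESeq2 called 1 gene, Herpud1 (adjusted p = 0.00348). With the replicate number as a block both Herpud1 (adjusted p = 0.00195) and Dnajb9 (adjusted p = 0.00448) were called, where 32.8% of all genes were. Herpud1 also passed without the block when Ctu1 iKO replicate 3 was left out (log2 0.68, adjusted p = 0.0373). The torin 1 effect on transcripts differed between genotypes for none of the 10 genes and for 0% of 9616 genes tested in edgeR, no gene of the 10 had an unadjusted p under 0.05, and DESeq2 also called 0 of the 10.

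**Figure D4:**
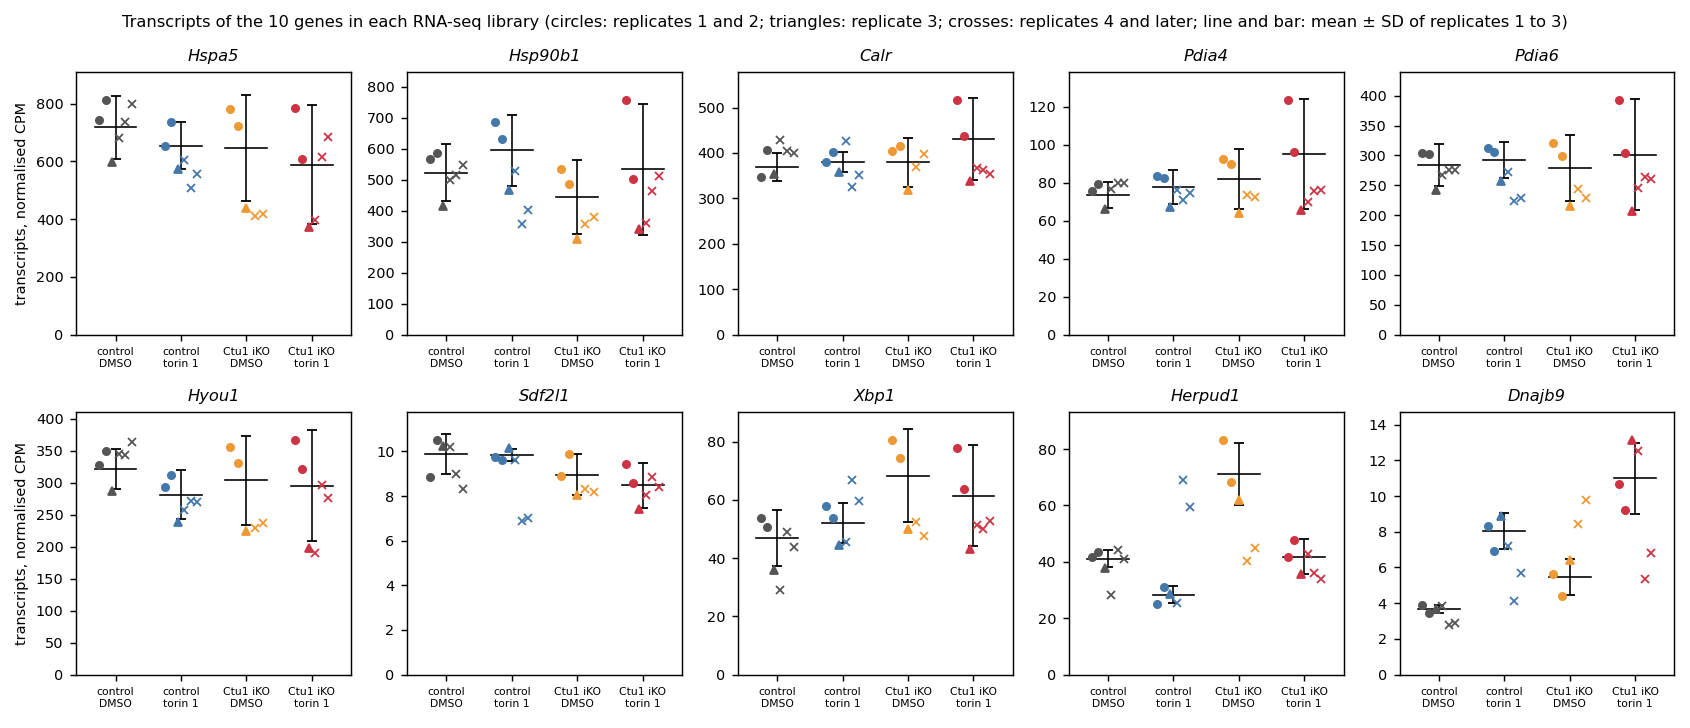
Normalised transcript CPM (y axes, each from 0) of the 10 genes in every RNA-seq library of the 4 groups (x axes). Circles are replicates 1 and 2, triangles replicate 3 and crosses replicates 4 and later, which include the 6 libraries that lay against their labels, and lines with bars are the mean ± SD of replicates 1 to 3. In those replicates Herpud1 lay at 62.1 to 83.2 in Ctu1 iKO with DMSO and at 25.2 to 47.9 in all other groups.

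Translational efficiency, the change in footprints beyond that in transcripts of replicates 1 to 3, was tested as an interaction of assay and group. None of the 10 genes was called in any of the 4 comparisons in edgeR or in DESeq2, and none had an unadjusted p under 0.05. The genes called overall made up 0% of 10386 genes for Ctu1 iKO with DMSO, 1.14% of 9848 for torin 1 in control, 1.67% of 9845 for torin 1 in Ctu1 iKO and 0.111% of 9901 for Ctu1 iKO with torin 1. The log2 changes of the 10 genes lay between -0.42 for Herpud1 with torin 1 in Ctu1 iKO (SE 0.25, adjusted p = 0.737) and 0.64 for Dnajb9 in Ctu1 iKO against control with torin 1 (SE 0.34). SEs were 0.17 to 0.55, so that small changes in translational efficiency were not detectable here.

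Promoter elements of the unfolded protein response or of ATF4 were found in 5 of the 9 genes that could be searched. RefSeq promoters of GRCm38.p6, from 250 bases before to 50 after each start, were matched for 9 of the 10 genes, with Hyou1 missing. They were searched on both strands for 4 elements. These were the ER stress element (ERSE, CCAAT and CCACG with 9 bases between them), ERSE-II (ATTGG and CCACG with 1 base between them), the UPR element (TGACGTGG) and a C/EBP-ATF composite element of the kind that ATF4 binds (TTGCATCA). The ERSE was found in 4 of the 9 genes (Hspa5, Hsp90b1, Calr and Pdia6), in 0.166% of the 7829 listed genes with a promoter and in 0.119% of 32851 promoters. ERSE-II was found in 1 of the 9, in 0.0894% of those genes and in 0.0365% of promoters. The composite element was found in 1 of the 9, in 0.69% of those genes and in 0.895% of promoters. These counts are a description and were not tested. The single matches of ERSE-II and of the composite element were both in Herpud1. The UPR element was in none of the 9, in 1.07% of the listed genes and in 0.676% of promoters. No element was matched in Dnajb9, Xbp1, Pdia4 or Sdf2l1, which says only that these letters are not in this window. The 5 promoters with a match are shown, so that the elements can be compared. Each sequence lies before the RefSeq start on the strand of the gene, 5′ to 3′, with the matched letters in capitals. The Hspa5 stretch lies inside the extent that GENCODE gives the gene, whose start differs from that of RefSeq.

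The stretch of Herpud1 is chr8:94386302-94386402 (plus strand), with the composite element first and ERSE-II after it. That of Hspa5 is chr2:34772010-34772058 (plus strand), that of Calr chr8:84847060-84847108 (minus strand), whose element lies in reverse, and that of Pdia6 chr12:17266476-17266524 (plus strand). That of Hsp90b1 is chr10:86705518-86705671 (minus strand) and holds 2 ERSE matches, the second in reverse.
Herpud1: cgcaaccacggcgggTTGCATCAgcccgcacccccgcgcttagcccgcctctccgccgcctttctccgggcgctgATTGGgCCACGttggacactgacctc
Hspa5: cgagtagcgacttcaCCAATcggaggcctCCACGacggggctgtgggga
Hsp90b1: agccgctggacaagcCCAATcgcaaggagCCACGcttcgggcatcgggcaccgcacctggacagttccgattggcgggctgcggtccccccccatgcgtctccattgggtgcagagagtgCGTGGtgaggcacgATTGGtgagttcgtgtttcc
Calr: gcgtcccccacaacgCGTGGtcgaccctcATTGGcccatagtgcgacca
Pdia6: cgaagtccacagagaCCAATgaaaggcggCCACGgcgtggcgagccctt

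The PERK and ATF4 branch had 7 of its genes called higher in Ctu1 iKO. Of 16 listed genes tested, these 7 were called in footprints with DMSO and none was called lower, where 1.63% of all genes were called higher. This list too was chosen with earlier results of these data known, so that its counts are a description. The median log2 change of the list was 0.67, beside 0.00 for all genes. Atf4 itself was at 174 to 218 normalised footprint CPM in Ctu1 iKO (median 179, n = 5) and at 85.1 to 108 in control (median 97.8, n = 6). Its groups did not overlap, as for 4.62% of all genes, and the log2 change was 0.99 (adjusted p = 0.00027). Among the others were the transcription factors Atf5 (log2 1.74, adjusted p = 0.000396) and Ddit3 (log2 1.41, adjusted p = 0.0256), the stress-induced Sesn2 (log2 1.23, adjusted p = 0.004), and the pseudokinase Trib3 (log2 1.198, adjusted p = 0.00347). Not called were, for example, Ppp1r15a, the regulatory subunit that reverses eIF2-alpha phosphorylation (log2 -0.04, adjusted p = 0.974), and Slc7a11, a cystine transporter (log2 -0.17, adjusted p = 0.307). Transcripts of Atf4 were higher too, at 336 to 372 normalised CPM in Ctu1 iKO and 217 to 228 in control with DMSO (n = 3 each). No gene of the list was called in translational efficiency with DMSO, where 0% of all genes were. ATF4 can be induced by kinases other than PERK, and whether any kinase acted here was not tested.

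With torin 1, 3 of 14 listed genes of this branch were called in control footprints, all lower, where 4.33% of all genes were called lower: Trib3 (log2 -1.43, adjusted p = 0.00198), the mTOR inhibitor Ddit4 (log2 -1.09, adjusted p = 0.00813) and Atf4 (log2 -0.51, adjusted p = 0.00932). In Ctu1 iKO 3 of 14 were called, all lower, where 4.52% were: Trib3 (log2 -1.26, adjusted p = 0.000311), Atf5 (log2 -0.75, adjusted p = 0.0267) and Atf4 (log2 -0.67, adjusted p = 0.00197). Trib3 footprints were at 4.77 to 8.61 normalised CPM in control with DMSO, 1.499 to 3.85 with torin 1, 13.9 to 20.3 in Ctu1 iKO with DMSO and 5.48 to 8.86 in Ctu1 iKO with torin 1. As for Herpud1, the range of Ctu1 iKO with torin 1 overlapped that of control with DMSO. Between genotypes under torin 1, 6 of 14 were called, all higher, where 2.23% were. Atf5 (log2 1.25, adjusted p = 0.00456) and Atf4 (log2 0.83, adjusted p = 0.000839) were among them. The count was 5 without both footprint libraries against their genotype label and 3 without control torin 1 replicate 2, control torin 1 replicate 4 or Ctu1 iKO torin 1 replicate 4. None of the 14 was called for a difference in the torin 1 effect, with 1 at an unadjusted p under 0.05 (edgeR) and 0 called in DESeq2.

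Transcripts of the branch gave 8 of 16 called in Ctu1 iKO with DMSO, all higher, where 3.32% of genes were called higher. Chac1, a glutathione-degrading enzyme, had the largest change of the list (log2 2.17, adjusted p = 0.0141), and Sesn2 (log2 1.48, adjusted p = 0.00602) and Atf5 (log2 1.46, adjusted p = 0.0124) followed. The count was 0 without control replicate 2 and 4 without Ctu1 iKO replicate 1. With torin 1, 3 of 14 were called lower in control, where 7.4% were, and 4 of 14 lower in Ctu1 iKO, where 4.52% were, with Trib3 at log2 changes of -1.33 (adjusted p = 0.000627) and -1.765 (adjusted p = 0.00298). Without Ctu1 iKO torin 1 replicate 2 the second count was 2. Atf4 transcripts changed with torin 1 by log2 -0.67 in control (adjusted p = 0.00238) and -0.78 in Ctu1 iKO (adjusted p = 0.00481). With the replicate number as a block the control count became 7 lower and 3 higher, where 43.7% of all genes were called in either direction. Under torin 1, 4 of 14 were higher in Ctu1 iKO, where 0.953% were, and 10 of 14 were higher and 2 lower with the block, where 32.8% were called in either direction. Without it this count was 0 or 1 when any library but Ctu1 iKO replicate 3 was left out.

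**Figure D5:**
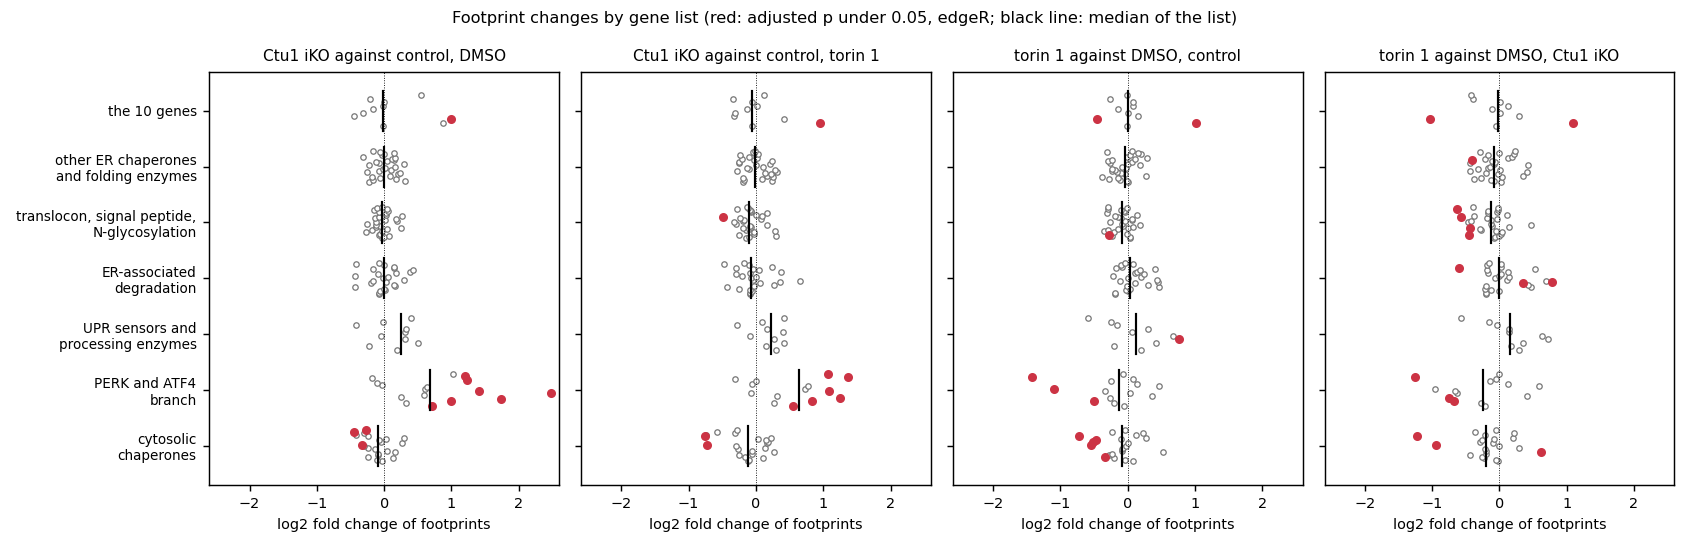
Log2 fold changes of footprints (x axes) for each gene of 7 lists (rows) in the 4 comparisons, with genes at an adjusted p under 0.05 in red and the median of each list as a black line. The PERK and ATF4 branch had a median of 0.67 in Ctu1 iKO with DMSO, where that of the 10 genes was -0.02.

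Other lists of the ER machinery were read against the share called over all genes. Of 29 other ER chaperones and folding enzymes tested, 0 were called in footprints of Ctu1 iKO with DMSO (edgeR, with 2 higher and 0 lower at an unadjusted p under 0.05), and their median log2 change was 0.00. Of 25 genes of ER-associated degradation and 29 of the translocon, signal peptide and N-glycosylation machinery, 0 were called there too, where 2.66% of all genes were, with 1 higher and 3 lower, and 1 higher and 1 lower, at an unadjusted p under 0.05. Under torin 1 in Ctu1 iKO, 4 of the 29 translocon and glycosylation genes were called, all lower, where 4.52% of all genes were called lower. Among them were Ssr4 (log2 -0.63, adjusted p = 0.00151), Srp72 of the signal recognition particle (log2 -0.57, adjusted p = 0.00159) and Rpn1 of the oligosaccharyltransferase (log2 -0.45, adjusted p = 0.0444). In that comparison 1 of the 29 folding genes, the prolyl isomerase Ppib, was called lower (log2 -0.40, adjusted p = 0.0265), and 3 of the 25 degradation genes were called, where 8% of all genes were called in either direction. Of these Herpud2, a relative of Herpud1 (log2 0.78, adjusted p = 0.0341), and Faf2 (log2 0.35, adjusted p = 0.0176) were higher and Ube2g2 (log2 -0.61, adjusted p = 0.0291) was lower. Without both footprint libraries against their genotype label, Herpud2 was not called (log2 0.58, adjusted p = 0.105), and the counts were 6 of the translocon, 2 of the folding and 2 of the degradation genes. In control, torin 1 left 0 of 29 folding genes (0 higher and 6 lower at an unadjusted p under 0.05), 0 of 25 degradation genes (2 higher and 0 lower) and 1 of 29 translocon genes called, where 7.24% of all genes were, the last being Rpn1 (log2 -0.28, adjusted p = 0.0333). Among transcripts with torin 1 in control, 0 of the 29 folding genes, 4 of the 25 degradation genes (3 higher and 1 lower) and 1 of the 29 translocon genes were called, where 13.1% of all genes were. In Ctu1 iKO these counts were 0, 2 and 0, where 8.25% were. In Ctu1 iKO against control they were 0, 1 and 1 with DMSO, where 5.12% were, and 0 for each list with torin 1, where 1.31% were (edgeR). At an unadjusted p under 0.05, the folding genes had 0 in either direction with torin 1 in each genotype, 1 higher and 1 lower in Ctu1 iKO with DMSO, and 3 higher and 0 lower in Ctu1 iKO with torin 1. In the last comparison the degradation genes had 1 higher and 1 lower and the translocon genes 3 higher and 1 lower, and the translocon genes had 1 higher and 1 lower with torin 1 in Ctu1 iKO.

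Of the 10 listed sensors and their processing enzymes, 0 were called in Ctu1 iKO with DMSO (2 higher and 1 lower at an unadjusted p under 0.05), with a median log2 change of 0.255. Ern1, which encodes IRE1, was at a log2 change of 0.31 (adjusted p = 0.426), Atf6 at 0.20 (adjusted p = 0.386) and Eif2ak3, which encodes PERK, at -0.04 (adjusted p = 0.969). Creb3l2, a membrane-bound transcription factor of the ER, was called higher with torin 1 in control (log2 0.77, adjusted p = 0.00222). Of 22 cytosolic chaperones, 3 were called in Ctu1 iKO with DMSO, all lower, where 2.66% of all genes were called in either direction: Hsph1 (log2 -0.45, adjusted p = 0.0483), Hsp90ab1 (log2 -0.33, adjusted p = 0.0204) and Stip1 (log2 -0.27, adjusted p = 0.0483). With torin 1 in control, 5 of the 22 were called lower and 0 higher, where 4.33% of all genes were called lower. In Ctu1 iKO 2 were called lower and 1 higher, where 8% of all genes were called in either direction. Torin 1 lowered footprints of Hspa8, the constitutive cytosolic HSP70, by 0.72 on the log2 scale in control (adjusted p = 0.00018), while its ER relative Hspa5 changed by 0.00. Hspa8 was the 1 gene of these lists whose torin 1 effect differed between genotypes (log2 -0.51, adjusted p = 0.0376), a call that was lost without both footprint libraries against their genotype label (log2 -0.499, adjusted p = 0.0839), where Sec61g of the translocon was called instead (log2 -0.51, adjusted p = 0.0274).

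Over the 23 footprint libraries, the gene most like Hspa5 in its log2 level was Itga3, an integrin subunit (Pearson r = 0.931), followed by Canx (r = 0.893), Pdia3 (r = 0.888), Hsp90b1 (r = 0.885) and Tmem131 (r = 0.884) of 9856 genes. Hyou1, Pdia6, Calr and Pdia4 ranked 50, 67, 71 and 78 with r between 0.757 and 0.789. Sdf2l1 (r = 0.413) and Xbp1 (r = 0.189) were less alike, and Herpud1 (r = -0.203) and Dnajb9 (r = -0.273) ran slightly the other way. These libraries share their groups and replicate numbers, so that the values are a description only.

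The share of the codons AAA, CAA and GAA, which are read by tRNAs that Ctu1 helps to modify, ranged widely among the 10 genes. It was highest in Hsp90b1 at 14.0% of 802 codons, above 96.4% of the 9588 genes with a coding sequence, and Hspa5 and Dnajb9 had 11.15% and 10.8%. Herpud1, Xbp1 and Sdf2l1 had 4.60%, 4.12% and 4.07%, below the median of all genes, 6.135%. The median of the 10 genes was 7.67%, within the quartiles of 4.04% and 8.71% over all genes. Of the genes with higher values, Hsp90b1 and Hspa5 had negative log2 changes of footprints in Ctu1 iKO with DMSO and Dnajb9 a positive one, none of them called. The genes lie on GRCm38 (GENCODE M21) at chr2:34771970-34777547 for Hspa5, chr10:86690209-86705509 for Hsp90b1, chr8:94386438-94395377 for Herpud1, chr12:44205559-44210326 for Dnajb9 and chr11:5520659-5525893 for Xbp1.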

How the data were processed

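Ribosome footprints (monosomes after RNase I) and stranded poly(A) RNA-seq came from the same lysates of EPP2 cells. The authors deposited raw read counts per gene, 1 table per library. Per the labels and the study's methods, footprint reads were trimmed with cutadapt 3.4, had their molecular identifiers extracted with UMI-tools 1.1.1, lost rRNA reads and were aligned and counted with STAR 2.5.3a. Whether duplicates were removed is not given in the sources used here. RNA-seq reads were processed with cutadapt 3.4 and STAR. The processing notes name mm10, while the methods name a human build. The tables of each treatment share their rows, which hold only genes with at least 100 footprints in some library, and all RNA-seq counts are even, so that each fragment may have been counted 2 times and the depth in fragments may be lower than the totals. The methods speak of 2 biologically independent replicates, while the figure legends for footprints give 5 or 6 independent experiments. The legend for transcripts gives 2 independent experiments. Which libraries were independent is not given in the sources used here. No column of per-sample values was left unmapped (0).

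Groups came from the labels. Printed levels were normalised by TMM over the 9857 symbols shared by the tables, except for Ctu1, where the DMSO tables alone were used. Tests used the edgeR 4.0.16 quasi-likelihood test (R 4.3.3), with TMM within each assay over the genes of that fit. They left out genes whose mean count was under 10 and adjusted over all genes tested. The threshold was an adjusted p of 0.05. Transcripts used replicates 1 to 3 because 6 later RNA-seq libraries lay against their labels. Translational efficiency was an interaction of assay and group. DESeq2 1.42.0 was an alternative, beside other scaling, no count filter, a replicate block, a term for replicates 1 and 2, subsets of replicates and leaving out each library or the 2 footprint libraries that lay against their genotype label.

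The members and lists were chosen with earlier results of these data known. All 10 genes are named. Genes of the lists were drawn from up to 3 called genes per direction and comparison with the largest change, provided that the mean count reached 100. Not all genes that meet this rule are named. Atf4, Trib3, Chac1, Ppp1r15a, Slc7a11, Ern1, Atf6 and Eif2ak3 may fall outside this rule and were then named after their values were seen. Replicate numbers were taken to pair libraries where every pair's deviations from the group means correlated over 0.1. This held for footprints with torin 1 in control (r = 0.4 to 0.63, 6 pairs), for footprints of Ctu1 iKO with torin 1 (0.3 to 0.52, 6 pairs) and for all 4 RNA-seq comparisons (0.47 to 0.84, 3 pairs each). It did not hold for the other footprint comparisons, whose lowest r was -0.071. On simulated counts of Ctu1 iKO against control with DMSO (10397 genes), the footprint test recovered 28.4% of 1.5-fold, 71.6% of 2-fold and 87.9% of 3-fold changes.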

Additional observations from a re-analysis of the deposited data

Results flagged for a closer look

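Of 40 pairs of a gene and a footprint group, 3 had 1 library far from the others of its group, and chance gives about 1 in 20. Hsp90b1 was at 1833 normalised CPM in Ctu1 iKO with torin 1 replicate 1, where the other 5 libraries had 634.5 to 1014, and this was the shallowest library. Calr was at 325 in control with torin 1 replicate 3, where the others had 390 to 421.8. Sdf2l1 was at 7.54 in Ctu1 iKO with DMSO replicate 4, where the others had 9.994 to 10.61. What set these values apart was not tested.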

How the results depend on the processing

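The counts below are of the 10 genes called, first for footprints and then for transcripts, with the value as reported in brackets, and the cause of each move was not tested. Shares are those of all genes called in the same fit. With DESeq2, footprints gave 4 for Ctu1 iKO with DMSO (1), where 6.73% of all genes were called, and 2 with torin 1 (1), where 8.49% were, and transcripts 3 (1) and 1 (0), where 15.1% and 11.3% were. With the replicate block, footprints gave 2 and 3 (3.5% and 14.4%), and transcripts 4 and 2 (28% and 32.8%) with 6 for torin 1 in control (2), where 43.7% were. In the unpaired footprint comparison with DMSO the added gene was Hsp90b1, and the block changed no other count of the 10 genes. With a term for replicates 1 and 2, footprints gave 4 and 2 (7.09% and 9.22%), and transcripts 4 and 2 (25.9% and 13%) with 4 for torin 1 in control (31.4%). With library totals in place of TMM, footprints gave 1 for torin 1 in control (2), where 9.43% were called, and 2 for Ctu1 iKO with torin 1 (4.87%). With all 4 groups in 1 fit, footprints gave 2 for Ctu1 iKO with DMSO (2.76%) and transcripts 1 for Ctu1 iKO with torin 1 (10.1%). Footprints of replicates 1 to 3 gave 0, 0, 1 (2) and 0 for Ctu1 iKO with DMSO, torin 1 in control, torin 1 in Ctu1 iKO and Ctu1 iKO with torin 1, where 0.0192%, 1.4%, 1.81% and 0.0101% of all genes were called. Replicates 1 and 2 alone also gave 0, 0, 1 and 0, where 0%, 1.36%, 1.47% and 0% were, so that the counts of 0 between genotypes hold for every gene tested. Later replicates alone gave 2 for each of the Ctu1 iKO comparisons, where 1.77%, 8.42% and 6.44% were called. Transcripts of replicates 1 and 2 alone gave 3 for Ctu1 iKO with DMSO (15.3%). With all RNA-seq replicates, the counts were 2 for Ctu1 iKO with DMSO (26.4%) and 0 for torin 1 in Ctu1 iKO (2), where 0% of all genes were called, and Herpud1 with torin 1 in control turned from -0.55 to 0.0154 on the log2 scale (adjusted p = 0.98). Without the 6 RNA-seq libraries against their labels they were 3 (15.1%) and, for Ctu1 iKO with torin 1, 2 (8.69%), with 3 for torin 1 in control (23.9%). Without the 2 footprint libraries against their genotype label, the counts of footprints stayed at 2 for torin 1 in Ctu1 iKO (7.16%), 1 for Ctu1 iKO with torin 1 (3.71%) and 0 for the interaction.

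Leaving out each library gave 1 to 1, 1 to 2, 2 to 2 and 1 to 2 genes in the 4 footprint comparisons in that order, 0 to 2, 1 to 2, 0 to 2 and 0 to 1 for transcripts, and 0 in every fit of the interactions and of translational efficiency. Counts over all genes moved more. For footprints of Ctu1 iKO with DMSO they were 277 as reported, 700 with DESeq2, 737 with the term for replicates 1 and 2, and 2 with replicates 1 to 3. For transcripts of Ctu1 iKO with torin 1 they were 126 as reported, 1092 with DESeq2 and 3162 with the block. With 3 RNA-seq libraries a group and a shallowest footprint library of 4602092 counts, small changes may not have been detectable. The subsets by replicate number and the fits without the 6 or the 2 libraries were chosen after seeing the data.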

Other observations

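Replicates 4 and later of the RNA-seq, which entered no main comparison of the report but only the fits of all replicates, gave Herpud1 at 28.3, 44.0 and 41.1 normalised CPM in control with DMSO and at 25.5, 69.1 and 59.5 in control with torin 1. In Ctu1 iKO Herpud1 was at 40.2 and 45.0 with DMSO and at 42.8, 36.2 and 33.8 with torin 1. The libraries labelled control with torin 1 thus held the highest Herpud1 values of these replicates, whereas among replicates 1 to 3 those of Ctu1 iKO with DMSO did. Of these later libraries, 6 lay against their labels over all genes, and what the fits that include them give by label cannot be told apart from a mislabelling.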
